A study of Mus musculus with 8 samples.

Results

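The genes described here are the MYC, MAX and MXD network factors: the activators Myc, Mycn and Mycl, their partner Max, the antagonists Mxd1, Mxd3, Mxd4, Mxi1 and Mnt, and the related factor Mlx. They were chosen as every probe set annotated to 1 of these 10 genes alone, which gave 9 of 13307 genes and 19 of 24838 such probe sets. The RNA of Mycn was not analysed here, and that gene enters only by its promoter window. The tested lines were 4 primary mouse embryonic fibroblast lines of genotype Cry1-/-|Cry2-/- (Cry DKO), which lack both cryptochromes, the repressors of the circadian clock. They were set against 4 wild-type (WT) lines. All 8 lines were independent, came from embryos of a background close to C57BL/6J reached by more than 7 backcrosses, and carried no treatment. They proliferated without synchronisation in medium with 10% serum at 3% oxygen, so each array averages over clock phases and cell cycle stages. Embryonic fibroblast cultures are mixtures of cells, and in such bulk RNA fewer cells of a type and less RNA per cell cannot be told apart.

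MYC, MYCN and MYCL are transcription factors that bind DNA as pairs with MAX at E-boxes, above all at CACGTG, and activate genes of growth, ribosome production and metabolism. The MXD proteins, MXI1 and MNT pair with the same MAX, bind the same sites and recruit SIN3 and histone deacetylases, which opposes MYC. MLX pairs with MXD1, MXD4 and MNT and with the glucose-sensing MONDO proteins. CRY2 is known to take part in the turnover of MYC protein, a step that arrays of RNA do not measure.

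In Cry DKO lines the antagonist Mxd4 fell at 3 of its 4 probe sets and the activator Mycl at 1 of its 3. The other 3 probe sets of these genes were too dim to be tested, and 1 of the passing Mxd4 sets, 1422574_at, reached the level needed for testing only through its WT signals. No tested probe set of the other 6 genes passed. Myc RNA itself differed by 0.13 on the log2 scale, with a 95% interval of -0.05 to 0.32. Of 13 tested member probe sets 4 (30.8%) passed an adjusted p of 0.05 in limma, all lower, while 6.81% of all 16333 tested probe sets passed, with 3.14% as lower and 3.67% as higher. Before adjustment 6 of the 13 had a p under 0.05, as did 23.2% of all tested probe sets. Without any filter on the level the same 4 passed, of 19 member probe sets (21.1%), where 3.99% of all 24838 did. The count rested on all 8 lines: it was 1 or 2 in each fit that left out 1 line, 1 with line sex as a term, and none (0) in male lines alone or with the mean of macrophage markers as a covariate. That mean separates the genotypes. Of all tested probe sets 167 passed in male lines alone and 23 with the covariate, against 1112 with all 8 lines and no covariate. As 3 of the 4 passing sets belong to Mxd4, the count by gene is 2 of 8, where 9.18% of 9511 genes passed with 1 probe set each. The members were chosen with earlier results of these data known, so their shares are descriptions.

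The promoters of both genes that fell are shown because CACGTG is bound by the MYC network and also by the clock factors CLOCK and ARNTL, which cryptochromes hold back. Each is a window from 250 bases before to 50 bases after a start annotated for the gene, from RefSeq on build GRCm38.p6. It is written 5′ to 3′ on the gene's strand, with CACGTG in capitals. Mxd4 lies at chr5:34187661-34187960 on the minus strand, and Mycl at chr4:122995681-122995980 on the plus strand. The Mycl gene is listed from chr4:122995588, so its window lies inside the gene and leaves out the outermost start.
Mxd4: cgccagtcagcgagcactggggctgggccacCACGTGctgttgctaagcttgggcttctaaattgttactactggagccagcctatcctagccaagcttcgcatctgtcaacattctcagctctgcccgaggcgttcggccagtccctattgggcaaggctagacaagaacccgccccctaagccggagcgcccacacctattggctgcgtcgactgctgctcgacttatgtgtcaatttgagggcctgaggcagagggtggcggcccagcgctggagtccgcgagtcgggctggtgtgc
Mycl: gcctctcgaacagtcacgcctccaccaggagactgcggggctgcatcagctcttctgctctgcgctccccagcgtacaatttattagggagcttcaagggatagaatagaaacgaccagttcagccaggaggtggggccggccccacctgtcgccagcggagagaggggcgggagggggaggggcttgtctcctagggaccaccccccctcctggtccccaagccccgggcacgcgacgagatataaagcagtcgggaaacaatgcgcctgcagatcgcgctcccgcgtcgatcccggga

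CACGTG reads the same on both strands. The Mxd4 window holds it once, 219 bases before the start. These letters are not in the Mycl window, and the outermost start of Mycl was not searched. Windows were found for 9 of the 10 genes. Besides Mxd4, the motif was in those of Max, Mnt and Mlx, at 3, 123 and 40 bases before the start used for the window. For Max, Mnt and Mlx that start is not the outermost one listed for the gene. Of 27025 genes 8.09% have the motif in a window of this length. The 4 sites are set side by side with 15 bases on each side, and a match is a description of the letters, not of binding. Their positions on GRCm38.p6 are chr5:34187909-34187944 (Mxd4, minus strand), chr12:76962231-76962266 (Max, minus strand), chr11:74830786-74830821 (Mnt, plus strand) and chr11:101087235-101087270 (Mlx, plus strand).
Mxd4: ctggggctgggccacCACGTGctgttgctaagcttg
Max: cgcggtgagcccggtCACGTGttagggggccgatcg
Mnt: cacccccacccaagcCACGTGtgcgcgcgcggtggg
Mlx: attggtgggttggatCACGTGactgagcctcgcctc
Of these 4 genes Mxd4 alone passed the test for a difference between genotypes.

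Values are log2 signals as deposited, on a scale whose base 2 was inferred from their range. Each difference subtracts the WT mean of 4 lines from the Cry DKO mean of 4 lines on that scale. Adjusted p-values come from the limma fit across all tested probe sets, adjusted by Benjamini and Hochberg. A probe set was tested when its mean over the 8 arrays reached 6.06, the 40th percentile, called the floor here. Of the 19 member probe sets 13 reached it, and the other 6 are given with values of a fit without that filter. Dim signals are less precise: SDs within genotypes had a median of 0.43 where the mean was below 6 and of 0.10 where it was above 9. Levels of different probe sets cannot be set against each other on arrays.

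The targeted genes were read first. Cry1 (1433733_a_at) had signals of 6.32, 5.84, 6.50 and 6.50 in Cry DKO lines, against 7.27, 6.51, 6.95 and 6.42 in WT lines (difference -0.50, limma adjusted p = 0.18). Cry2 (1426383_at) had 6.86, 7.12, 6.85 and 6.64 in Cry DKO lines, against 7.15, 7.34, 6.97 and 7.34 in WT lines (difference -0.34, limma adjusted p = 0.143). The groups overlapped for both, and the sources used here do not place these probes relative to the deleted parts, so the values do not check the labels. Signals of Y-linked genes divided the lines into 2 Cry DKO lines (replicates 2 and 3) and 3 WT lines (replicates 2, 3 and 4) with means of 7.74 to 7.94, and 2 Cry DKO lines (replicates 1 and 4) and 1 WT line (replicate 1) with means of 2.66 to 2.96. These were read as male and female lines.

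**Figure D1:**
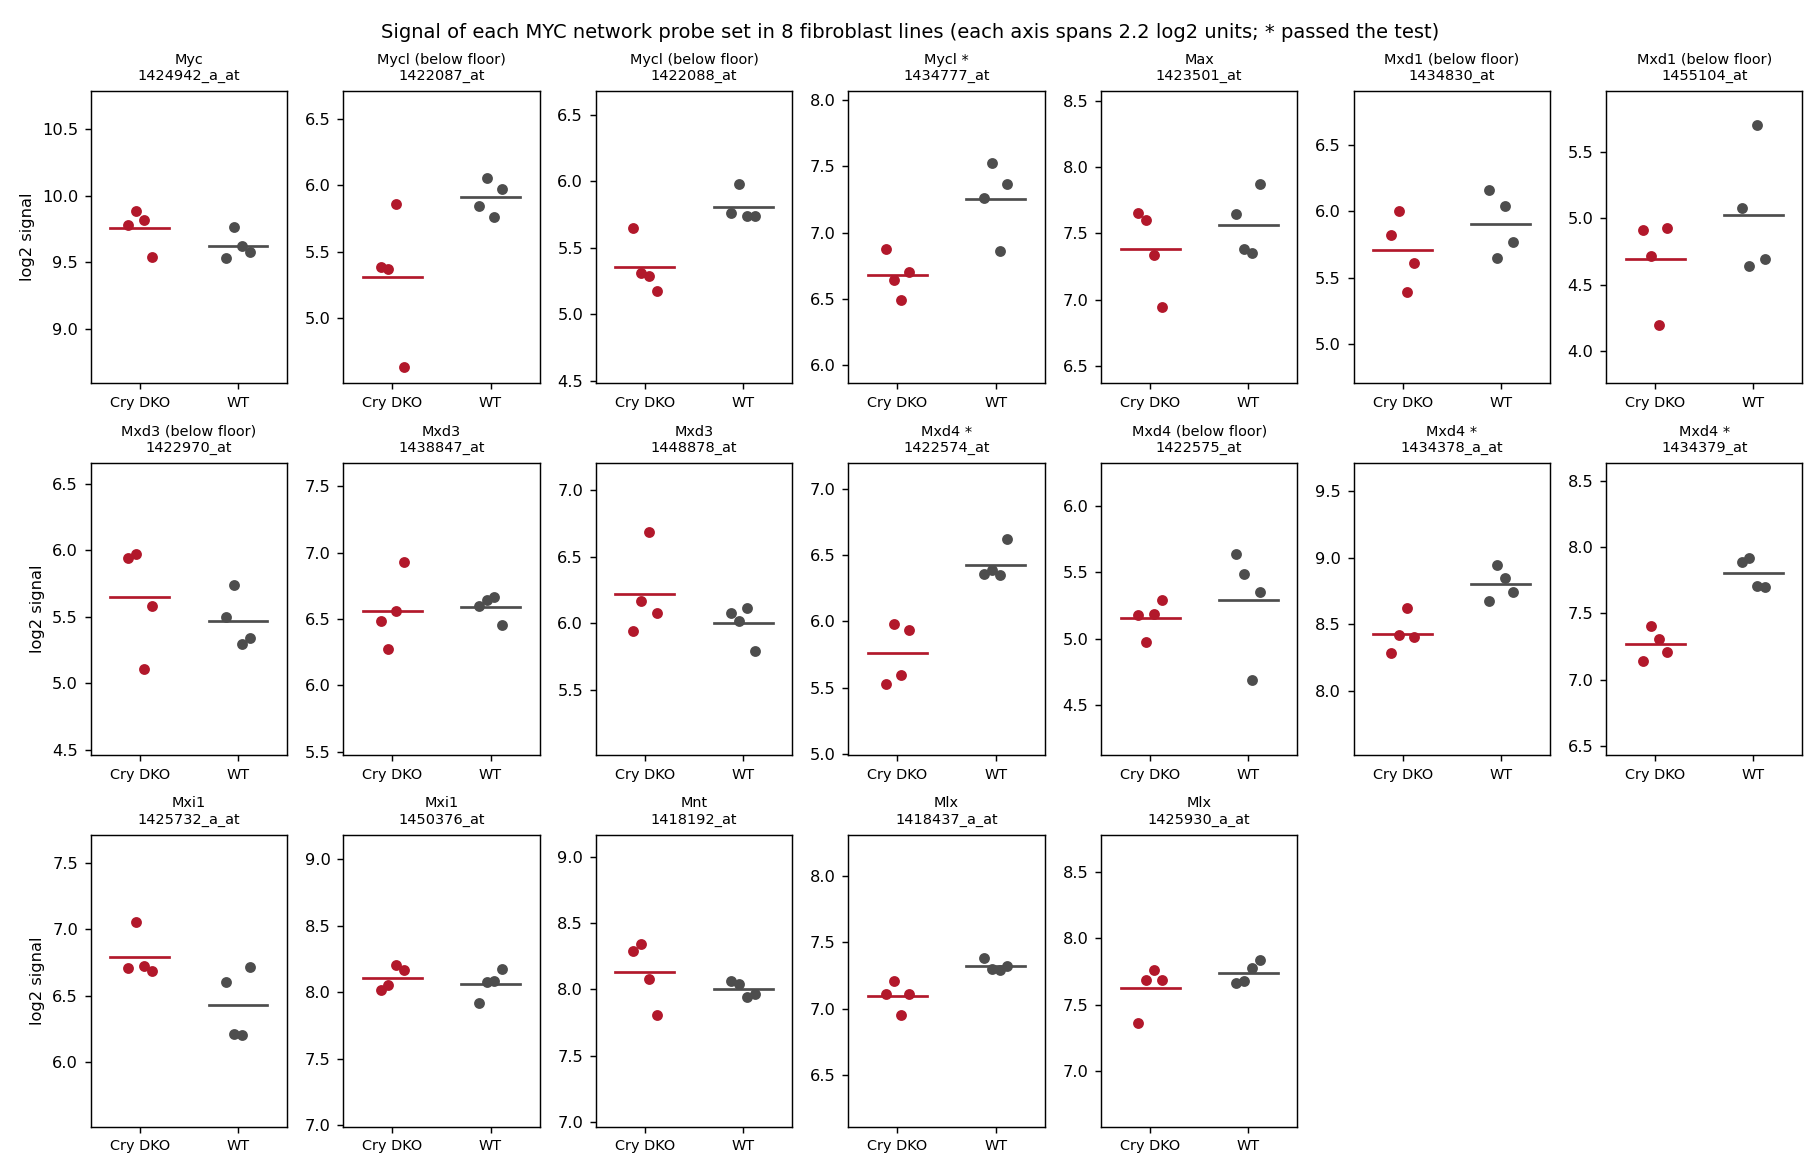
Log2 signal (y axes, all of the same span) of the 19 member probe sets in each line, with Cry DKO lines in red and WT lines in grey. Points are lines and bars are group means. The groups stand apart without overlap for 3 of the Mxd4 probe sets, for Mlx 1418437_a_at and for the dim Mycl 1422088_at.

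Among the activators, Myc, the broadly used member of the family in proliferating cells, had 1 probe set (1424942_a_at). Its signals were 9.78, 9.88, 9.82 and 9.54 in Cry DKO lines, against 9.53, 9.76, 9.62 and 9.57 in WT lines. Cry DKO replicates 1 to 3 lay above every WT line, and replicate 4 lay among the WT lines. The means were 9.76 ± 0.15 in Cry DKO and 9.62 ± 0.10 in WT lines (SD, n = 4 each), a difference of 0.13 (SE 0.08) that did not pass (limma adjusted p = 0.372).

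Mycl, the family member first found amplified in lung cancer, had 3 probe sets, and 1 was tested. That probe set, 1434777_at, had 6.88, 6.64, 6.49 and 6.70 in Cry DKO lines, against 7.26, 7.52, 6.86 and 7.36 in WT lines. The groups met at a single point: WT replicate 3 (6.86) lay just under Cry DKO replicate 1 (6.88). Mycl fell by 0.58 on the log2 scale (SE 0.15, limma adjusted p = 0.0393), to 0.671 times the WT signal, and an exact two-sided permutation test over the 70 assignments of lines gave p = 0.0571, where the smallest possible value is 0.0286.

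The other Mycl probe sets lay below the floor and were lower in most Cry DKO lines. Probe set 1422088_at had 5.65, 5.31, 5.29 and 5.18 in Cry DKO lines, against 5.76, 5.98, 5.74 and 5.74 in WT lines, with no overlap (difference -0.45, SE 0.17, limma adjusted p = 0.172). Probe set 1422087_at had 5.39, 5.37, 5.86 and 4.64 in Cry DKO lines, against 5.84, 6.06, 5.76 and 5.97 in WT lines (difference -0.60, SE 0.23, limma adjusted p = 0.188). Cry DKO replicate 3 overlapped the WT lines there and replicate 4 was the lowest of all. The 3 probe sets varied together over the 8 lines, with r between 0.56 and 0.87, a description over lines that differ by genotype.

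The call of Mycl depended on which lines were in the fit. It held without Cry DKO replicate 1 and without WT replicate 3, and ended without Cry DKO replicate 2, 3 or 4 and without WT replicate 1, 2 or 4, with differences of -0.70 to -0.49 and limma adjusted p between 0.0208 and 0.103 over the 8 fits. It also ended with line sex as a term (difference -0.61, adjusted p = 0.0559). Within each sex the groups did not overlap: the difference was -0.68 between 2 Cry DKO and 3 WT male lines, and -0.47 between 2 Cry DKO and 1 WT female lines. With so few lines, and 1 WT female line, that lack of overlap says little. The call ended in male lines alone too, a fit chosen after seeing the data (limma adjusted p = 0.15).

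Max, the shared partner without which neither MYC nor the MXD proteins bind DNA well, had 1 probe set (1423501_at). It had 7.65, 7.60, 7.33 and 6.95 in Cry DKO lines, against 7.64, 7.38, 7.35 and 7.87 in WT lines. The groups overlapped over most of their range, and only Cry DKO replicate 4 lay well below the rest. The difference was -0.18 (SE 0.17, limma adjusted p = 0.561), with a 95% interval of -0.54 to 0.18.

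Mlx had 2 tested probe sets, and neither passed. Probe set 1418437_a_at had 7.11, 7.21, 6.96 and 7.11 in Cry DKO lines, against 7.38, 7.30, 7.29 and 7.32 in WT lines. All Cry DKO lines lay below all WT lines, but the difference was -0.23 (SE 0.09, limma adjusted p = 0.16). Groups that stand apart with Cry DKO lower were found for 4 of 13 tested member probe sets, this one and 3 of Mxd4, and for 7.88% of all tested probe sets. The other Mlx probe set, 1425930_a_at, had 7.36, 7.68, 7.76 and 7.68 in Cry DKO lines, against 7.66, 7.68, 7.77 and 7.84 in WT lines, and the groups overlapped (difference -0.12, SE 0.10).

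Among the antagonists, Mxd4, a MAX partner linked to cells that leave the cycle or differentiate, had the smallest adjusted p of the network. Probe set 1434379_at had 7.14, 7.41, 7.31 and 7.21 in Cry DKO lines, against 7.89, 7.92, 7.70 and 7.70 in WT lines. The highest Cry DKO line lay 0.29 below the lowest WT line. The means were 7.27 ± 0.12 in Cry DKO and 7.80 ± 0.12 in WT lines (SD, n = 4 each), so Mxd4 fell by 0.53 (SE 0.10, limma adjusted p = 0.0093), to 0.691 times the WT signal.

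A second Mxd4 probe set, 1434378_a_at, had 8.28, 8.42, 8.62 and 8.40 in Cry DKO lines, against 8.67, 8.94, 8.85 and 8.74 in WT lines. It fell by 0.37 (SE 0.09, limma adjusted p = 0.0329), and Cry DKO replicate 3 came within 0.05 of WT replicate 1 without crossing it. A further one, 1422574_at, had 5.53, 5.98, 5.60 and 5.93 in Cry DKO lines, against 6.35, 6.39, 6.35 and 6.62 in WT lines. It fell by 0.67 (SE 0.15, limma adjusted p = 0.0252), and its Cry DKO signals all lay below the floor, so that its mean over the 8 arrays, 6.09, reached the floor only through the WT lines. All 3 had an exact permutation p of 0.0286, the smallest that 4 lines against 4 can give.

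The last Mxd4 probe set, 1422575_at, was dim, and its groups overlapped. It had 5.18, 4.98, 5.19 and 5.29 in Cry DKO lines, against 5.64, 5.49, 4.69 and 5.35 in WT lines (difference -0.13, SE 0.22, below the floor). WT replicate 3 was the lowest of all lines there. Over the 8 lines the 3 brighter sets correlated with each other at r of 0.74 to 0.87, and this one with them at r of 0.10 to 0.34, given as a description.

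The Mxd4 call at 1434379_at held in each of the 8 fits that leave out 1 line (limma adjusted p 0.0151 to 0.0319) and with line sex as a term (difference -0.52, adjusted p = 0.0236). It ended in male lines alone (limma adjusted p = 0.157) and with the macrophage mean as a covariate (adjusted p = 0.253). The other Mxd4 calls were less stable. That of 1434378_a_at held only without Cry DKO replicate 3 and without WT replicate 1, and ended without each other line (differences -0.43 to -0.32, adjusted p 0.025 to 0.0896 over the 8 fits). That of 1422574_at held without Cry DKO replicates 2 and 4, ended without Cry DKO replicates 1 and 3 and WT replicates 1, 2 and 3 (differences -0.74 to -0.59, adjusted p 0.03 to 0.0612), and was below the floor without WT replicate 4. With sex as a term their adjusted p-values were 0.0545 and 0.0534. Within each sex the groups did not overlap for any of the 3 sets, which follows from their lack of overlap over all 8 lines and adds nothing to it. At 1434379_at the difference was -0.41 in male lines and -0.71 in female lines, where only 1 line was WT.

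**Figure D2:**
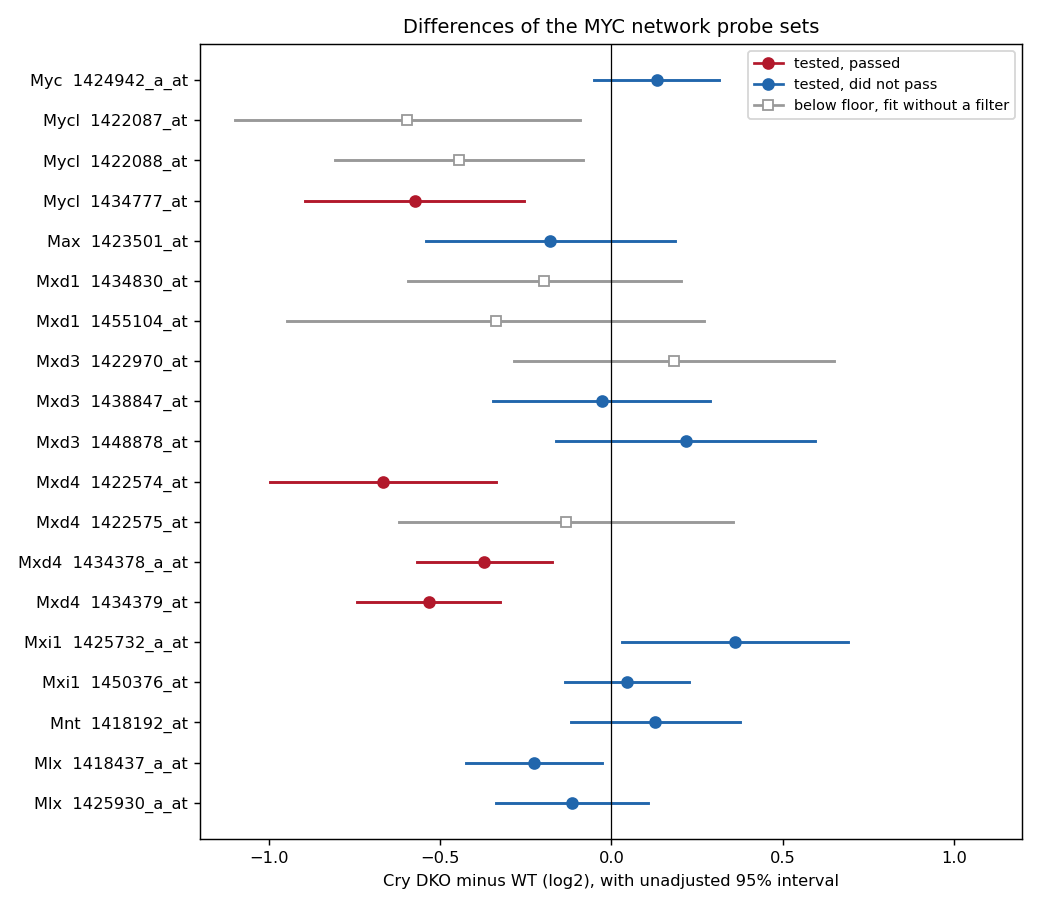
Log2 difference, Cry DKO minus WT (x axis), of each member probe set with its unadjusted 95% interval. Red marks the 4 that passed, blue those tested that did not, and open grey squares those below the floor; 3 Mxd4 sets and 1 Mycl set are red, and the Myc interval spans 0.

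Other transcripts differed between the same lines. Of 14 macrophage markers, all tested, 8 rose (57.1%) and none fell, where 4.33% of 9511 genes rose when each was read by 1 probe set, with a mean level of 8.59 to 9.52 in Cry DKO lines and 7.92 to 8.50 in WT lines. The number of markers that passed was 4 when Cry DKO replicate 2 was left out, 5 when WT replicate 1 was, and 3 when WT replicate 2 or 3 was. All 19 tested genes of DNA replication and mitosis rose (100%, against the same 4.33%), with means of 9.89 to 10.0 in Cry DKO lines and 9.39 to 9.57 in WT lines. Both lists were chosen with earlier results of these data known, so their shares are descriptions. With the macrophage mean as a covariate, although that mean separates the genotypes, none of the member probe sets passed, and 23 of 16333 probe sets passed in all. In that fit Mxd4 had differences of -0.42 (SE 0.15, limma adjusted p = 0.253) at 1434379_at, -0.11 (SE 0.11, adjusted p = 0.687) at 1434378_a_at and -0.63 (SE 0.25, adjusted p = 0.287) at 1422574_at, and Mycl one of -0.71 (SE 0.24, adjusted p = 0.228). The part of the replication and mitosis genes in these differences was not tested.

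**Figure D3:**
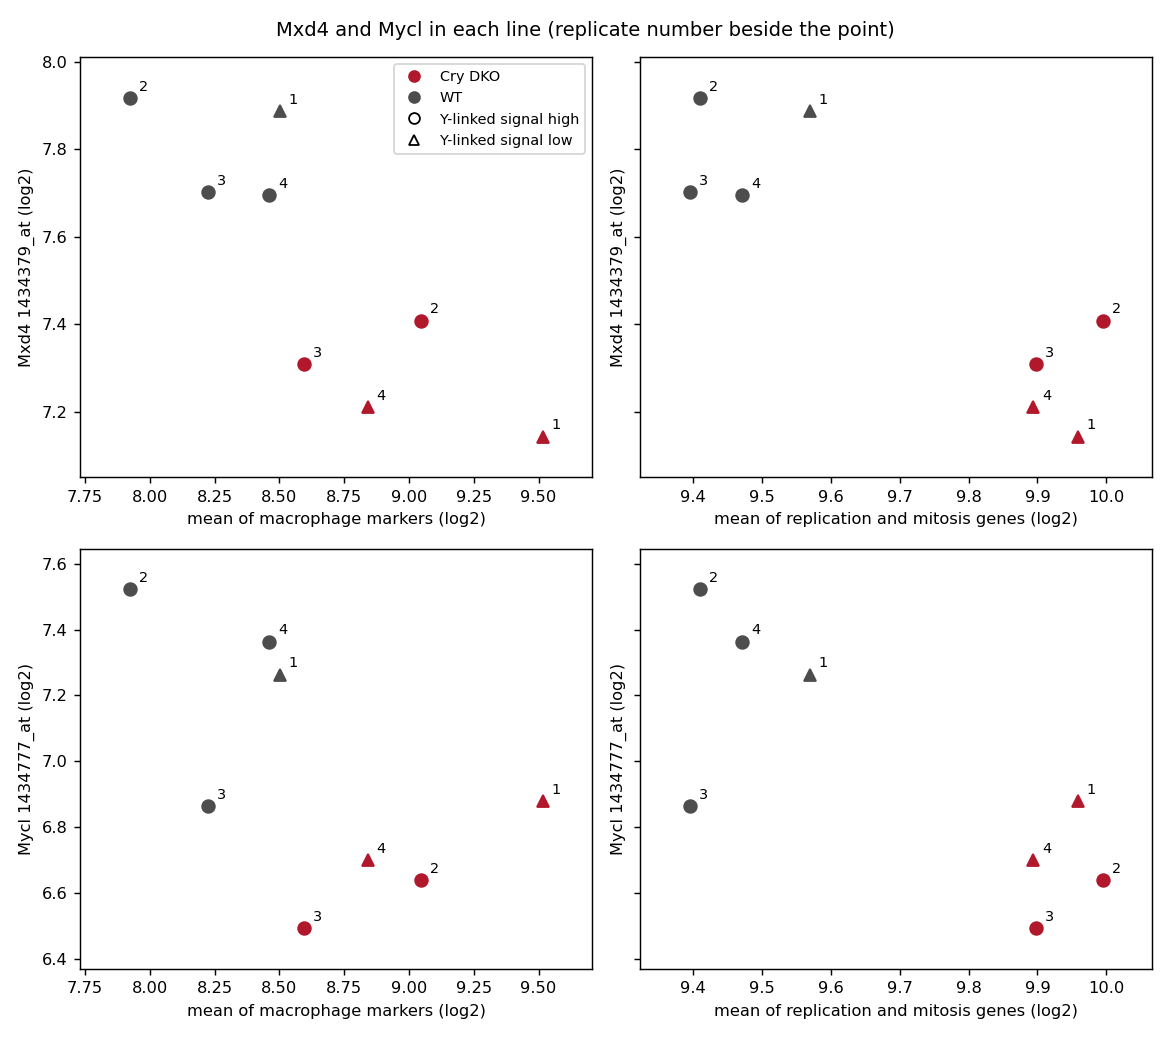
Log2 signal of Mxd4 (top) and Mycl (bottom) in each line against the mean log2 signal of macrophage markers (left) and of replication and mitosis genes (right), with the replicate number at each point, Cry DKO in red, WT in grey, and triangles for lines with low Y-linked signal. The genotypes separate along both x axes, with macrophage means of 8.59 to 9.52 in Cry DKO and 7.92 to 8.50 in WT lines.

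**Figure D4:**
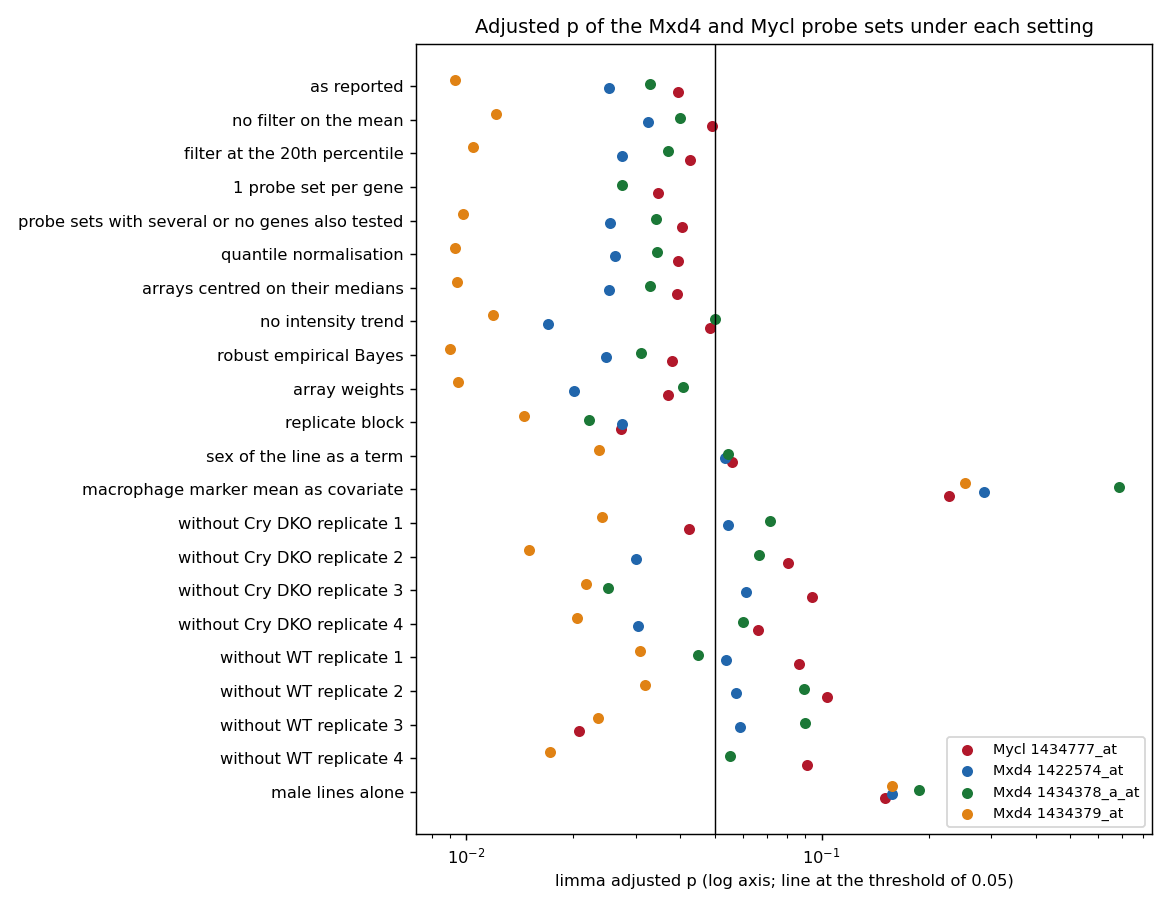
Limma adjusted p (x axis, log scale, line at 0.05) of the 4 passing probe sets under each setting (rows). Mxd4 1434379_at stays left of the line in each fit without 1 line, and all 4 sets lie right of it with the macrophage covariate and in male lines alone.

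The remaining antagonists showed no difference that passed. Mxi1, which is also known as MXD2, had 2 tested probe sets that differed in size. Probe set 1425732_a_at had 6.71, 7.06, 6.72 and 6.68 in Cry DKO lines, against 6.60, 6.21, 6.20 and 6.71 in WT lines. Only WT replicate 4 overlapped the Cry DKO lines (difference 0.36, SE 0.15, limma adjusted p = 0.179). Probe set 1450376_at had 8.01, 8.05, 8.21 and 8.17 in Cry DKO lines, against 7.92, 8.08, 8.09 and 8.18 in WT lines, a difference of 0.05 (SE 0.08) with a 95% interval of -0.14 to 0.23. Over the 8 lines the sets correlated at r = 0.06.

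Mnt, the antagonist present in most cells whether or not they divide, had 8.29, 8.35, 8.08 and 7.81 in Cry DKO lines, against 8.06, 8.04, 7.94 and 7.96 in WT lines (1418192_at). Cry DKO replicates 1 to 3 lay above every WT line and replicate 4 below every WT line, so the SD was 0.24 in Cry DKO and 0.06 in WT lines. The difference was 0.13 (SE 0.11, limma adjusted p = 0.539). Cry DKO replicate 4 was also the lowest Cry DKO line for Myc and the lowest of all lines for Max. Over the 8 lines Mnt correlated with Myc at r = 0.78 and with Max at r = 0.53, and within genotypes at 0.73 and 0.76. Its strongest correlation with another member was negative, with Mxd3 at r = -0.83 (within genotypes -0.87), and Max also ran against Mxd3, at r = -0.80 (-0.88). These values describe 8 arrays, and Cry DKO replicate 4 was the highest of all lines at that Mxd3 probe set, 1438847_at.

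Mxd3, the MXD family member expressed in S phase, had 3 probe sets, which correlated with each other at r of -0.44 to 0.03 over the 8 lines. Probe set 1438847_at had 6.48, 6.27, 6.56 and 6.93 in Cry DKO lines, against 6.60, 6.64, 6.67 and 6.45 in WT lines (difference -0.03, SE 0.14). Probe set 1448878_at had 5.94, 6.16, 6.68 and 6.08 in Cry DKO lines, against 6.08, 6.01, 6.11 and 5.79 in WT lines (difference 0.22, SE 0.17). Both were close to the floor, and the Cry DKO lines spread more widely than the WT lines. The dim set 1422970_at had 5.95, 5.97, 5.10 and 5.58 in Cry DKO lines, against 5.50, 5.74, 5.30 and 5.34 in WT lines (difference 0.18, SE 0.22).

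Mxd1, an antagonist induced in differentiating cells, lay below the floor at both of its probe sets. Probe set 1434830_at had 5.83, 6.00, 5.39 and 5.62 in Cry DKO lines, against 6.16, 5.65, 6.04 and 5.77 in WT lines (difference -0.20, SE 0.18). Probe set 1455104_at had 4.91, 4.72, 4.20 and 4.93 in Cry DKO lines, against 5.08, 4.64, 5.70 and 4.69 in WT lines (difference -0.34, SE 0.28). The groups overlapped at both, and Cry DKO replicate 3 was the lowest line at both.

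Genes whose pattern over the 8 lines was most like that of a member were named by Pearson correlation with its probe set of highest mean, as a description. For Mxd4 they were Nfatc4, a transcription factor (r = 0.98), Eda2r, a receptor of the tumour necrosis factor family (0.97), and Trp53inp1, a nuclear stress protein (0.97), which fell by 0.67, 0.31 and 0.59 on the log2 scale. For Mycl they were Twist2, a helix-loop-helix factor of mesenchymal cells (r = 0.97), which fell by 0.35, and Pacs1 (0.97) and Scaf4 (0.96), with differences of -0.23 and -0.57 that did not pass. For Myc they were Uap1 (r = 0.95), an enzyme of amino sugar metabolism, Nans (0.95), an enzyme of sialic acid synthesis, and Fasn (0.95), fatty acid synthase, with differences of 0.10, 0.15 and 0.10 that did not pass. Over 8 lines such values are reached by several probe sets: 12 had r above 0.95 with Mxd4, 8 with Mycl and 1 with Myc.

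Genes that act with the network were read from lists, each gene by its tested probe set of highest mean, beside a median difference of -0.01 over all tested probe sets. Of 9511 genes read by 1 probe set each, 4.33% rose, 3.45% fell and 24.9% had an unadjusted p under 0.05. Of 14 tested corepressor genes of the MXD proteins and MNT 1 (7.14%) passed, near the share of those 9511 genes that rose or fell. Sap30, a subunit of the SIN3 complex, rose by 0.37 (SE 0.09, limma adjusted p = 0.0309). The histone deacetylase gene Hdac1 had a difference of 0.26 (adjusted p = 0.0675), and the scaffolds Sin3a and Sin3b had -0.03 and -0.18, none of which passed. Without 1 line the Sap30 list had 0 to 2 passing genes, and 0 without Cry DKO replicate 1, 2 or 4 or WT replicate 1, 2 or 3. Of 13 tested MYC coactivators none passed in limma, with 4 at an unadjusted p under 0.05, close to the share of all genes. The helicase genes Ruvbl2 and Ruvbl1 had differences of 0.30 and 0.21. Of 7 tested partners in the wider network none passed in limma, with 2 at an unadjusted p under 0.05, also close to that share. Among them Usf1, another E-box binding factor, had a difference of 0.40, and Mga, a MAX partner, one of -0.17.

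Of 13 tested genes of MYC protein turnover 1 (7.69%) passed, near the share of the 9511 genes, of which 4.33% rose and 3.45% fell. Fbxo32, an F-box protein also known as atrogin-1, fell by 1.12 (SE 0.30, limma adjusted p = 0.0494). Its signal was 9.33 ± 0.77 in Cry DKO and 10.5 ± 0.28 in WT lines (SD, n = 4 each), the groups overlapped, and the call ended without Cry DKO replicate 1 or 3 or any 1 of the WT replicates. Cip2a and Usp28, also of this list, had differences of 0.47 (limma adjusted p = 0.0652) and 0.31 (limma adjusted p = 0.225). The ligase genes Fbxw7, Huwe1 and Skp2 had differences of 0.00, 0.03 and 0.19, and Gsk3b, a kinase that marks MYC for FBXW7, one of -0.11. None of these passed.

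Among genes that MYC is known to activate 6 of 36 tested members (16.7%) rose and none fell, where 4.33% of the 9511 genes rose. This list was chosen with earlier results of these data known, so its share is a description. None (0) of the 36 passed with the macrophage mean as a covariate, a fit in which 23 of all 16333 probe sets passed. The median difference of the list was 0.15, and 16 of the 36 had an unadjusted limma p under 0.05, where 24.9% of the 9511 genes had. Shmt2 and Shmt1, enzymes of one-carbon metabolism, rose by 0.34 (SE 0.05, limma adjusted p = 0.0062) and 0.78 (SE 0.16, adjusted p = 0.0183). Tfrc, the transferrin receptor, rose by 0.38 and Ncl, nucleolin, by 0.20. The MYC targets Odc1, Cad, Cdk4 and Ccnd2 had differences of 0.07, 0.09, 0.03 and -0.06, which did not pass. Leaving out 1 line gave 2 to 6 passing members: 2 without Cry DKO replicate 2 or 3 or WT replicate 3, and 3 without Cry DKO replicate 1 or WT replicate 1 or 4.

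Among genes that MYC is known to repress 3 of 12 tested members (25%) fell and none rose, where 3.45% of the 9511 genes fell. This list too was chosen with earlier results of these data known, and its share is a description. Its median difference was -0.12, and none (0) of the 12 passed with the macrophage covariate, where 23 of all 16333 probe sets did. Gadd45g, a growth arrest gene, fell by 0.38 (SE 0.05, limma adjusted p = 0.00259). The cyclin-dependent kinase inhibitors Cdkn2b and Cdkn1a fell by 0.52 and 0.42. The related inhibitor Cdkn1b had a difference of 0.08. Of the 12 genes 5 had an unadjusted limma p under 0.05, where 24.9% of the 9511 genes had. These include Fth1, whose difference of 0.16 did not pass. The genes of DNA replication and mitosis had a median difference of 0.51 in these lines. Top2a rose by 0.56, Bub1 by 0.54, Rrm2 by 0.51 and Birc5 by 0.57.

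**Figure D5:**
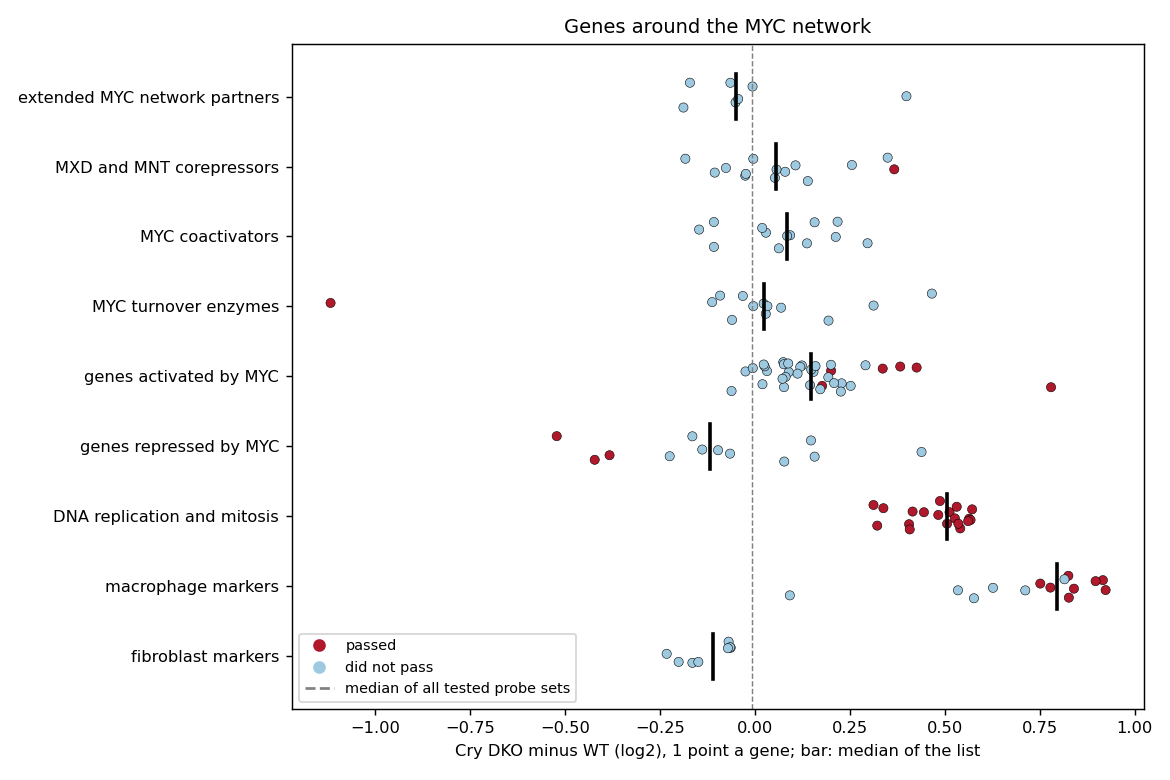
Log2 difference, Cry DKO minus WT (x axis), of the tested genes of 9 lists (rows), 1 point a gene, red where the gene passed, with a bar at each list's median and a dashed line at the median of all tested probe sets. The bars lie at 0.15 for genes activated by MYC, -0.12 for genes repressed by MYC and 0.51 for replication and mitosis.

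Cell markers were read to place the cultures. Of 8 tested fibroblast markers none passed in limma, with 2 at an unadjusted p under 0.05, where 24.9% of all genes were, and their mean was 13.0 to 13.1 in Cry DKO lines and 13.1 to 13.3 in WT lines. All 8 had negative differences, with a list median of -0.11, and Pdgfrb and Col1a1 had -0.17 and -0.20. Below the floor, Pdgfra and Dcn had differences of -0.25 and -0.51 in the fit without a filter (limma adjusted p = 0.669 and 0.197). The groups did not overlap for Dcn. The macrophage markers Cd14, Lyz2, Cd53 and Csf1r rose by 0.92, 0.83, 0.92 and 0.84. None of the 4 endothelial markers in the table reached the floor, and of 2 tested epithelial markers, Krt18 and Krt19, none passed in limma, with 1 at an unadjusted p under 0.05 and differences of -0.30 and 0.02. A further epithelial marker, Krt8, lay below the floor with means of 5.12 ± 0.26 in Cry DKO and 3.84 ± 0.56 in WT lines (SD, n = 4 each), and rose by 1.29 in the fit without a filter (limma adjusted p = 0.0364), with no overlap of the groups. Cdh1, also below the floor, had a difference of -0.26 and overlapping groups.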

How the data were processed

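Affymetrix 3′ arrays measured biotin-labelled cRNA made from 5 ug of total RNA of each of the 8 lines, per the labels. The deposited values are taken as log2 signals: their base was inferred from the range (0.0675 to 14.3). Per the submitters' processing notes GCOS was used (no version). How probes were summarised and arrays normalised: not given in the sources used here. Array medians were 6.78 to 6.79, so values were used as deposited.

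The platform's annotation paired 24838 of 30506 probe sets with 1 gene, 658 with several and left 4949 unnamed; the first kind was used, at or above the 40th percentile of the mean. The comparison used limma 3.58.1 (R 4.3.3, intensity trend, Benjamini-Hochberg). Every member is named, with up to 4 passing genes of a list by smallest p, or up to 2 where none passed, and 3 genes of highest correlation for Myc and each passing member. Hdac1, Sin3a, Sin3b, Fbxw7, Huwe1, Skp2, Gsk3b, Odc1, Cad, Cdk4, Ccnd2 and Cdkn1b were named outside this rule after their values were seen. So were Cip2a, Usp28, Fth1, Krt8, Cdh1, Pdgfra and Dcn. Members and lists were chosen with earlier results of these data known. The fit was tested on simulated data. Replicate numbers come from the titles of independent lines and were not used as pairs in the main fit. The number of arrays limits the precision.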

Additional observations from a re-analysis of the deposited data

Results flagged for a closer look

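In 3 of 38 groups of 4 lines, 1 line stood far from the other 3, by a gap to the nearest line that passed Dixon's 95% critical value; chance gives about 1 in 20 such groups. Mycl (1422088_at, below the floor) was 5.98 in WT replicate 2, against 5.74 to 5.76 in the other WT lines. Mxd4 (1422574_at) was 6.62 in WT replicate 4, against 6.35 to 6.39 in the other WT lines. Mxi1 (1425732_a_at) was 7.06 in Cry DKO replicate 2, against 6.68 to 6.72 in the other Cry DKO lines.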

How the results depend on the processing

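The 4 calls among the member probe sets, 3 of Mxd4 and 1 of Mycl, were also 4 without a filter, with a filter at the 20th percentile, with unnamed and several-gene probe sets added, after quantile normalisation or median centring, with robust empirical Bayes and with array weights. With the replicate block 4 passed as well. The labels name no pairs or batches, so the block was kept out of the main fit. Deviations of same-numbered lines correlated at 0.29, 0.11, 0.20 and 0.02, and 6 of 8 lines correlated best with their own number. Whether same-numbered lines share something was not tested. Without an intensity trend 3 passed, with 1 probe set per gene 2, which tests 8 members, with sex as a term 1, with the macrophage covariate 0, and in male lines alone, a fit chosen after seeing the data with 2 lines against 3, none (0). Leaving out 1 line gave 1 to 2. Of all probe sets 1112 passed, 1423 with the replicate block, 676 with sex as a term, 23 with the covariate and 167 in male lines alone. Without 1 line 482 to 859 passed (482, 586 and 601 when WT replicate 3, 1 or 2 was left out). Under the covariate no gene of any list passed (0), against 1 corepressor, 1 turnover gene, 6 activated and 3 repressed MYC targets, 19 replication and mitosis genes and 8 macrophage markers; without 1 line these were 0 to 2, 0 to 1, 2 to 6, 2 to 3, 15 to 18 and 3 to 10, and MYC coactivators 0 to 1, against 0. Signs turned only for differences that had not passed: with the covariate Mxd3 was -0.14 (1422970_at) and 0.14 (1438847_at), Mnt -0.045 and Mlx 0.078 (1425930_a_at); Mxd3 (1438847_at) was -0.15 to 0.068 and Mxi1 (1450376_at) -0.0027 to 0.083 without 1 line. The causes were not tested. Signal close to background limits the 6 dim probe sets.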
